A study of Mus musculus with 4 samples.

Results

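The RNA of unedited C3H10T1/2 cells was described gene by gene. The rule took the 1 library labelled with the genotype WT, out of 4 libraries in the series, and every gene counted in it. C3H10T1/2 is a mouse mesenchymal stem cell line, obtained from ATCC and carrying no edit in this library. The cells grew in DMEM with fetal bovine serum, GlutaMax and antibiotics, with no differentiation agent named in the labels. The study asked how Mmachc is silenced in CRISPR-edited derivatives of this line, with splice-site mutants of Prdx1 and knockouts of epigenetic regulators. Those edited libraries were not used here. Total RNA was depleted of ribosomal RNA and sequenced with a stranded kit. Because the cells come from an established line grown on plastic and there is 1 library with no replicate, no difference was tested, and the intervals below (95%, exact) cover counting error only. The labels name neither passage number nor confluence.

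C3H10T1/2 cells were derived from mouse embryo and grow as flat, contact-inhibited, fibroblast-like cells. They are a classic model of mesenchymal commitment: bone morphogenetic proteins push them toward fat, bone or cartilage, and DNA demethylation lets some of them become skeletal muscle, the observation that led to the discovery of Myod1. An undifferentiated mesenchymal cell is known for secreting fibrillar collagen and fibronectin, for stress fibres of actin and myosin, and for receptors that read growth factors in its surroundings. The values below show which of these genes had counted RNA in the unedited line and at what level.

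The library held 37685798 counts over 54532 gene identifiers, of which 26537 had at least 1 read. Levels are on the TPM scale, and shares are percents of all counts. TPM is reads per kilobase of exon, scaled so that nuclear protein-coding genes sum to 1000000. A gene is called expressed at 1 TPM or more with at least 10 reads, not detected at 0 reads, and trace in between. At 1 TPM a protein-coding gene of median exonic length (3492 bases) had 25.3 reads, and a count of 0 in it allows up to 0.119 TPM, taking 3 counts as the limit. The interval reached 6.25% to either side of a value at 1000 reads and 20.1% at 100 reads.

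Most of the library was messenger RNA. Nuclear protein-coding genes held 84.1% of counts (exact binomial interval 84.08 to 84.11), long non-coding genes 12.8%, mitochondrial mRNA 1.25% and mitochondrial rRNA 0.827%. Miscellaneous RNA held 0.426%, pseudogenes 0.336%, microRNA precursor genes 0.181% and small nucleolar RNA 0.0377%. The long non-coding share was mostly 1 gene, Gm26917, with 3974676 reads or 10.5% of all counts, and without it the share of long non-coding genes was 2.54%. Gm26917 lies at 39843013 to 39846341 on the plus strand of chromosome 17 (mm10), next to an annotated ribosomal RNA gene, CT010467.1, at 39846353 to 39848827. The overlapping genes Gm42418 and AY036118, which lie under that ribosomal RNA gene, had 0 reads. Whether the Gm26917 reads are remaining ribosomal RNA was not tested.

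**Figure D1:**
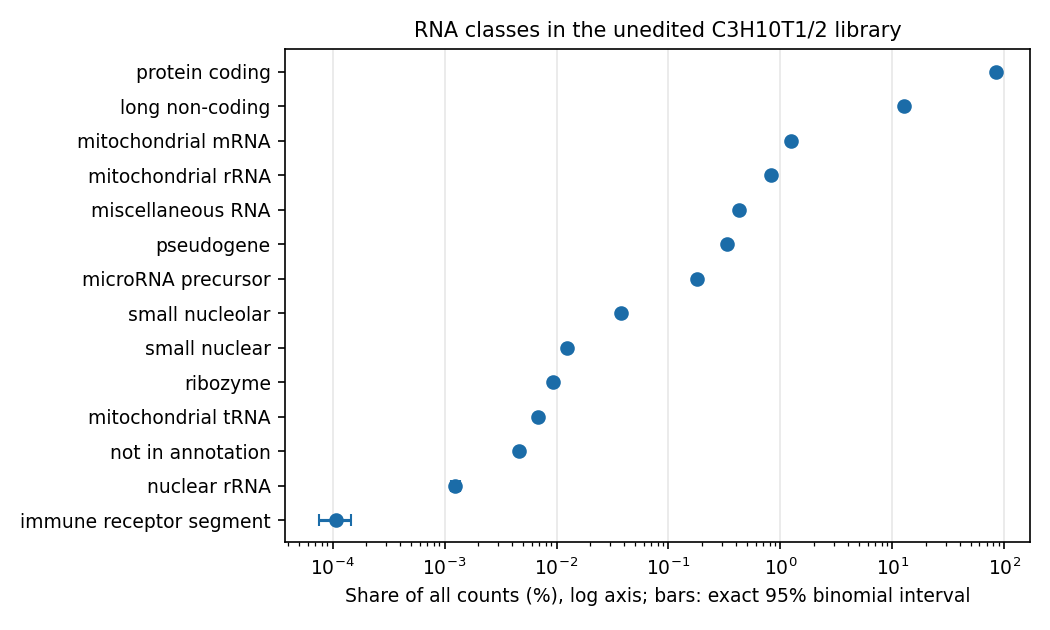
Share of all counts held by each RNA class in the unedited library, as a percent on a log axis; points are shares and bars exact 95% binomial intervals, most of them narrower than the point. Protein-coding genes (84.1%) and long non-coding genes (12.8%) stand above every mitochondrial and small RNA class.

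After Gm26917, nuclear retained RNA was among the non-coding genes with most reads. Malat1, a nuclear speckle RNA, had 439801 reads. Xist, the RNA that coats the inactive X chromosome, had 35672 reads, and Neat1, the scaffold of paraspeckles, had 29230. Rn7sk, the RNA that holds back the elongation factor P-TEFb, had 153491 reads, with 66.4% of its 64-base windows shared with transcripts of other genes. Among non-coding genes of at least 200 exonic bases, the others of the 10 with most reads were 3110039I08Rik (8949 reads), AI506816 (8866), mt-Rnr2 (304686) and the pseudogenes Gm15772 (7920) and Rps2-ps10 (7560), which share 81.1% and 95.8% of their windows with other transcripts. The small and structural group also takes in identifiers not in the annotation (1743 reads) and immune receptor segments (40 reads). It came from 1517 detected genes with 253366 reads in all, but few held most of them. Rn7sk had 153491 of these reads, Gm23935, a 57-base gene of the microRNA class, 63176, and Rprl3, a ribonuclease P RNA gene, 3335. Rmrp, the RNA of the related ribonuclease MRP, had 0 reads, with 96% or more of its exonic bases under exons of other genes.

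Reads on the mitochondrial genome were unevenly spread. The large ribosomal RNA mt-Rnr2 had 304686 reads and the small one, mt-Rnr1, had 7015. Of 13 mitochondrial mRNAs, 7 lay between 2363 and 16084 TPM, led by mt-Co1 (179726 reads), the catalytic subunit of cytochrome oxidase. Among these 7, mt-Nd4, the lowest, has 61.8% of its windows in transcripts of other genes and mt-Co1 44.7%, so their values are uncertain as well. The other 6 (mt-Co2, mt-Co3, mt-Atp6, mt-Atp8, mt-Nd4l and mt-Nd3) had 12 to 250 reads and 4.77 to 50.5 TPM. For 5 of those 6, 97.9% to 99.9% of windows are also found in transcripts of other genes. A row of 7 annotated pseudogenes on chromosome 1, at 24611535 to 24616197, held 49 to 326 reads each. The values of those 5 genes are uncertain. mt-Atp8, with 31 reads, shares no window with another annotated transcript. Sequence outside annotated transcripts was not searched, so its value is uncertain too. The 3 tRNA genes between mt-Co2 and mt-Nd4l had 1 read in all.

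Of 21982 nuclear protein-coding genes, 12151 (55.3%) were expressed, 3193 (14.5%) were at trace level and 6638 (30.2%) were not detected. These shares are the background for every gene list below. The median level was 3.16 TPM over all protein-coding genes and 31.9 TPM over the expressed ones. There were 9418 genes above 10 TPM, 2123 above 100 TPM and 91 above 1000 TPM, and 788 genes carried 50% of the summed TPM. Among genes with no read, 1159 had over 50% of their windows in transcripts of other genes and 292 had over 50% of their exonic bases under another gene's exons, and their 0 is uncertain. Chemosensory families account for many others: of 1135 olfactory receptor genes 4 were expressed and 1071 not detected, and of 326 vomeronasal receptor genes none was expressed and 309 were not detected. Ubiquitous machinery showed the opposite: 77 of 78 mitochondrial ribosomal protein genes and 53 of 55 translation initiation factor genes were expressed.

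Promoters differed in base composition between level classes, and 6 are printed as examples. RefSeq start sites (GRCm38.p6, the build called mm10) were matched by symbol for 16514 of the protein-coding genes. Each line below runs from 80 bases before the start to 30 bases after it, 5′ to 3′ on the gene's own strand. The first group shows TATAAA in capitals in highly expressed genes: Vim, an intermediate filament gene (chr2:13574231-13574340, plus strand), Fos, an immediate early transcription factor gene (chr12:85473810-85473919, plus strand), and Prdx1, the peroxidase gene at the centre of the study (chr4:116685519-116685628, plus strand).
Vim: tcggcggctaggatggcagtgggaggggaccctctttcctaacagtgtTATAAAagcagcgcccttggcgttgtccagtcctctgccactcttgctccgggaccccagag
Fos: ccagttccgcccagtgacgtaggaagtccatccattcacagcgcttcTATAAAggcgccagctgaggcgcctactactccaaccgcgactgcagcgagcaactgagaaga
Prdx1: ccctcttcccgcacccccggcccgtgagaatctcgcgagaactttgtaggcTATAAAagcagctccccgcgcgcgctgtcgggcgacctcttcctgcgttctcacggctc
The second group shows CG in capitals at 3 levels: Actg1, a cytoplasmic actin gene at 2930 TPM (chr11:120348466-120348575, minus strand), Mmachc, a cobalamin processing gene at 28.3 TPM (chr4:116708356-116708465, minus strand), and Alb, the liver albumin gene with 0 reads (chr5:90460790-90460899, plus strand).
Actg1: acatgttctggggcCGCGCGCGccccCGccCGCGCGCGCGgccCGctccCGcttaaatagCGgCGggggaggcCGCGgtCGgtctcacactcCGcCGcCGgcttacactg
Mmachc: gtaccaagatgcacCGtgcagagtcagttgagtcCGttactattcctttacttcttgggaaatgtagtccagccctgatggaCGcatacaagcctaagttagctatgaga
Alb: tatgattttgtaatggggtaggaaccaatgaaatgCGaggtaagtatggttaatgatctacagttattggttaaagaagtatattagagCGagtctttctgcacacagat

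The 3 capitalised TATAAA matches begin 32, 33 and 29 bases before the start in Vim, Fos and Prdx1. Actg1 has 20 CG pairs in its printed stretch, Mmachc 3 and Alb 2. Over the whole 300-base window (250 bases before the start to 50 after), the median number of CG pairs was 3 in genes not detected, 7 at trace level, 13 at 1 to 10 TPM, 21 at 10 to 100 TPM, 23 at 100 to 1000 TPM and 19 above 1000 TPM. Mmachc has 15 in that window, within the middle range of its own level class (14 to 30). Actg1 has 50, far above the middle range of the class over 1000 TPM (14 to 25), and is not typical of it. TATAAA on the gene's strand was searched from 100 bases before to 50 after the start. It was in 4.56% of all 32851 RefSeq start sites, which include sites of genes outside these level classes. The share was 10.5% in genes not detected, 5.36% at trace level, 2.40% at 1 to 10 TPM, 1.49% at 10 to 100 TPM, 2.97% at 100 to 1000 TPM and 10.4% (8 of 77 start sites) above 1000 TPM. Fos and Prdx1 belong to the class with 2.97%, and their TATAAA is not typical of it. These are descriptions of letters in a window, and genes are not replicates.

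The highest protein-coding levels belonged to translation, the cytoskeleton and the matrix. Eef1a1, the elongation factor that brings tRNA to the ribosome, was first at 13447 TPM (Poisson interval 13394 to 13501). Actb, cytoplasmic actin, followed at 9955 TPM and Col1a1, the main chain of type I collagen, at 8301 TPM (8275 to 8327). The intervals of these 3 do not overlap, but the place of Col1a1 depends on length: with the longest transcript it had 6799 TPM against 7654 for Vim, with the median protein-coding transcript 3716 TPM, and in CPM, without length scaling, it was above Eef1a1 (10456 against 6434). Next were Rplp1 (6546 TPM), Vim (6380), Eef2 (6120), Rplp0 (5469), Lgals1 (5116), Rpl41 (4315) and Fn1 (4313). The intervals of Rpl41 (4270 to 4359) and Fn1 (4299 to 4327) overlap, and their order is not resolved. Ribosomal protein genes took 13 of the 30 highest places, and 82 of 85 were expressed, with 9.50% of the summed TPM. In 5 of the 85, over 50% of windows are shared with other transcripts, and their values are uncertain. Among these are Rplp1 (52.3%), Rpl19 (54.1%) and Rpl36 (74.7%). For Eef1a1 the shared part is 32.1%. The rest of the 30 included the chaperone Hsp90ab1 (3054 TPM), the second cytoplasmic actin Actg1 (2930), Tpt1 (2893), the ferritin light chain Ftl1 (2610), the lysosomal precursor Psap (2229) and the desaturase Scd2 (2070). Col1a2, Lox, Bgn and Sparc were the other matrix genes among the 30. With no length scaling or with the median protein-coding transcript as length, 16 of these 30 genes were again among the 30 highest.

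The mesenchymal markers were mostly high, and the epithelial, endothelial, blood, neural and pluripotency markers were low or had no read. Wider lists for those cell types held some expressed genes, Klf2 (326 TPM) the highest. The markers belong to lists chosen with earlier results of these data known, so their levels do not test what the cells are. Of 15 mesenchymal stromal markers 14 were expressed, with a summed level of 20457 TPM. Col1a1 (8301 TPM), Vim (6380) and Col1a2 (2914) made up most of that sum. Itgb1, the shared beta chain of matrix-binding integrins, had 966 TPM, Pdgfrb, a receptor for platelet-derived growth factor, 399, and Ly6a, the Sca-1 antigen, 463. Among the lower members, Pdgfra had 142 TPM, Cd44 121, Alcam 62.3, Thy1 55.0, Eng 48.1 and Vcam1 46.7. Nt5e, which encodes CD73 and is used to define human stromal cells, was the exception among the 15, with 33 reads and 0.530 TPM (interval 0.365 to 0.745). In a wider list of 21 mesenchymal stromal surface genes 18 were expressed (85.7%, against 55.3% of all protein-coding genes) and 3 were at trace level.

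Other cell types left few reads. The 7 epithelial markers summed to 2.85 TPM, with Epcam and Krt5 at 0 reads, and 1 of them, Cdh1, was expressed at 2.06 TPM. The 6 endothelial markers summed to 7.46 TPM, nearly all of it Tek (6.98), with Kdr and Tie1 at 0 reads. The 7 blood and immune markers summed to 0.564 TPM, and Ptprc, Cd3e, Itgam, Adgre1 and Gata1 were among those with no read, although 69% of the exonic bases of Itgam lie under other exons. The 8 neural and glial markers summed to 13.9 TPM, 12.02 of it from Stmn2, with Snap25 and Olig2 at 0 reads. Of 4 pluripotency markers none was expressed, and Pou5f1, Zfp42 and Esrrb were at 0 reads. In wider lists, 4 of 18 epithelial, 4 of 15 endothelial, 2 of 19 blood and immune, 5 of 20 neural and glial and 3 of 20 germ and pluripotent genes were expressed, against 55.3% of all protein-coding genes. The highest were Klf2, also an immediate early gene, at 326 TPM in the germ and pluripotent list, S100b (79.8 TPM), Map2 (30.9), Tubb3 (13.9) and Stmn2 in the neural list, and Erg (39.5) and Flt1 (11.5) in the endothelial list. In a list of 15 liver and gut genes 2 were expressed, Gata4 (25.1 TPM) and Gata6 (7.31).

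**Figure D2:**
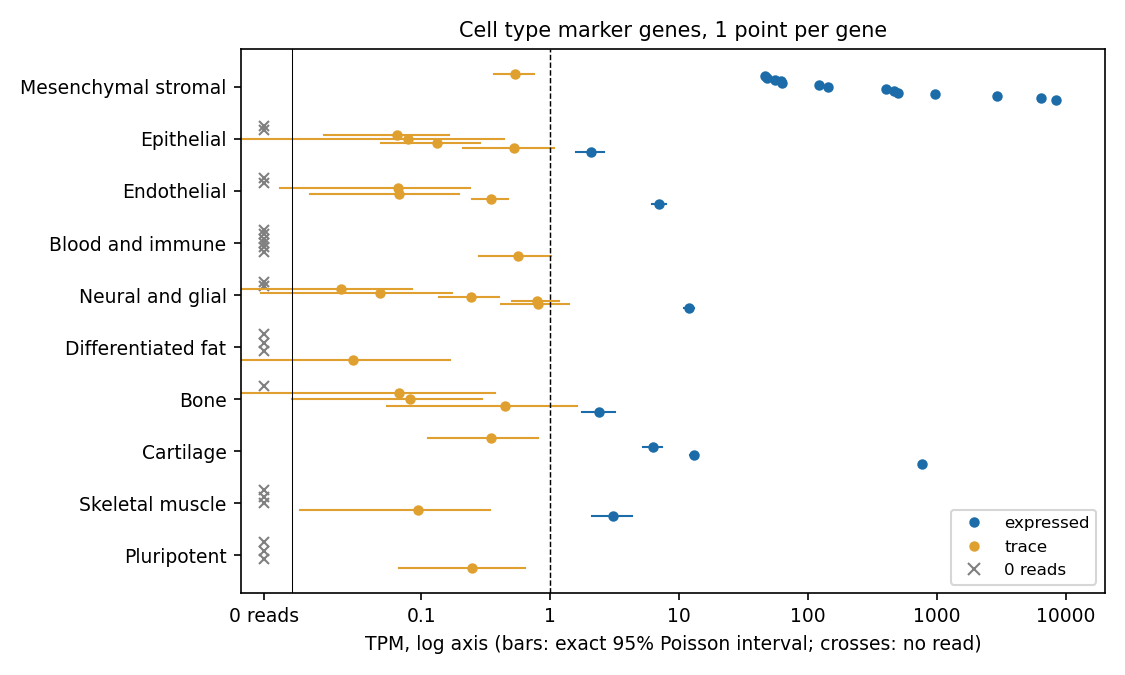
Level in TPM (log axis) of each marker gene in 10 cell type groups of the unedited library; points are genes, bars exact 95% Poisson intervals (cut at the left edge), crosses genes with 0 reads, and the dashed line marks 1 TPM. Mesenchymal markers lie between 46.7 (Vcam1) and 8301 TPM (Col1a1) except Nt5e, while in the other groups Col2a1 of cartilage (759 TPM) is the highest point.

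Transcription factors of mesenchyme were expressed in 34 of 37 cases, with a median of 48.4 TPM. Prrx1, a homeobox factor of limb and craniofacial mesenchyme, led at 495 TPM, beside Klf4 (491), Snai1 (295) and Osr1 (240). Snai1 represses E-cadherin, the product of Cdh1. Snai2 had 206 TPM and Prrx2 176, and Twist1 had 61.5 TPM. The 2 members with no read were Tcf21 and Meox2, whose 0 allows up to 0.177 and 0.176 TPM, and Meox1 was at trace level (0.434 TPM).

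Extracellular matrix genes were among the most abundant. Col1a1 (chromosome 11, 94936224 to 94953042, plus strand) alone held 1.05% of all counts and Fn1 (chromosome 1, 71585520 to 71653200, minus strand) 0.967%. Of 44 collagen chain genes 31 were expressed, with 2.88% of counts together. Type I collagen pairs Col1a1 with Col1a2, at 2914 TPM. Type VI and III chains followed with Col6a1 at 1202 TPM and Col3a1 at 1146 TPM, but their order depends on length. With the longest or the median protein-coding transcript as length, Col3a1 was above Col6a1. With the median transcript, Col3a1 was also above Col1a2 and Col1a1. Type V chains, which help nucleate collagen fibrils, were at 598 (Col5a1) and 483 TPM (Col5a2), and the basement membrane chains Col4a1 and Col4a2 at 457 and 355 TPM. The chains Col4a3 (0.194 TPM), Col4a4 (0.782), Col4a6 (0.208) and Col14a1 (0.237) were at trace level.

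Genes that build and crosslink collagen were high too. Of 21 processing genes 20 were expressed, with a median of 131 TPM. Lox, the lysyl oxidase that crosslinks collagen and elastin, had 2734 TPM, the collagen chaperone Serpinh1 1883, the prolyl hydroxylase subunit P4hb 1398 and the procollagen protease enhancer Pcolce 904. Loxl2 was at trace level (0.819 TPM). Among 35 glycoproteins and proteoglycans 33 were expressed, led by Fn1 (4313 TPM), Bgn (2532), Sparc (2165) and Ogn (998). Elastin and decorin stood far lower than their partners: Eln had 24.9 TPM (interval 23.7 to 26.3) and Dcn 2.77 TPM (2.29 to 3.32), against 523 TPM for the microfibril gene Fbn1 and 701 for Fbln5, which assembles elastic fibres.

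Of 29 matrix protease and inhibitor genes 23 were expressed. Timp2, an inhibitor of metalloproteinases, had 1560 TPM, Serpinf1, a secreted serpin that does not inhibit proteases, 972, Timp3 734 and the proteoglycan-cleaving Adamts1 548. Mmp2, a gelatinase, had 523 TPM and Mmp14, the membrane protease that activates it, 386. Mmp3, Mmp10, Mmp12 and Timp4 had 0 reads, and Mmp9 (0.156 TPM) and Mmp13 (0.104 TPM) were at trace level. Of 26 integrin genes 19 were expressed, led by Itgb1, Itga5 (241 TPM), Itgb5 (233) and Itgav (172), which form fibronectin and vitronectin receptors. Of 12 cadherin genes 5 were expressed, 2 of them well above the rest: Cdh11 (215 TPM), a mesenchymal cadherin, and Cdh2 (176), N-cadherin, with Cdh8 at 0 reads.

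Contractile genes showed high actin and non-muscle myosin and low late smooth muscle genes. In a list of 26 such genes 24 were expressed, with a median of 161 TPM. Acta2, the smooth muscle actin found in activated fibroblasts, had 1781 TPM (interval 1760 to 1802), Myh9, a non-muscle myosin heavy chain, 1204, Tpm4 873 and Cnn2 846. Cnn1, the calponin of differentiated smooth muscle, had 1.11 TPM, Myh11, its myosin, 0.673, and Myocd, the coactivator of the smooth muscle programme, 1 read. Tagln had 34 reads and 2.37 TPM, but 67.9% of its exonic bases lie under exons of other genes, so its value is uncertain. All 32 genes of a cytoskeleton and adhesion list were expressed (median 827 TPM).

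Among the cartilage, bone, fat and skeletal muscle lists, cartilage had the largest share expressed, with 20 of 24 members expressed and a median of 12.4 TPM. Col2a1 (chromosome 15, 97975602 to 98004695, minus strand), the fibrillar collagen of cartilage, had 50762 reads and 759 TPM (interval 753 to 766). Sox9, the transcription factor that drives it, had 580 TPM, Col11a1 206 and Cnmd, which encodes chondromodulin, 159. Tnmd and Scx, genes of tendon, had 137 and 25.3 TPM. Other cartilage genes were lower: Acan, aggrecan, had 13.0 TPM, Comp 6.29, and Col10a1, the collagen of hypertrophic cartilage, 6.23. Matn1 (0.346 TPM), Hapln1 (0.469) and Ucma (0.469) were at trace level. The intervals of Col2a1 and Acan lie far apart.

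Bone genes covered a wide range of levels. Of 22 bone regulators and matrix genes 14 were expressed. Apart from Col1a1 and Sparc the highest were Ogn (998 TPM), Atf4 (550), Spp1, which encodes osteopontin (539), and Tnfrsf11b, the decoy receptor osteoprotegerin (370). Runx2, the regulator that starts the bone lineage, had 62.0 TPM (interval 60.1 to 64) and Dlx5 32.5 TPM. Sp7, which acts after Runx2, had 2 reads (0.0814 TPM). Alpl, tissue non-specific alkaline phosphatase (chromosome 4, 137741733 to 137796384, minus strand), had 0 reads, which allows up to 0.103 TPM, and none of its exonic bases lie under other exons. Sost, Dlx3 and Tnfsf11 also had 0 reads, and Bglap, osteocalcin, had 2.

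Fat regulators were present without the genes of filled fat cells. Of 24 genes 15 were expressed. Plin2, a lipid droplet coat protein found in most cells, had 191 TPM, Cebpd 100, Zfp521, which opposes fat commitment, 98.3 and Ebf1 81.3. Pparg, the master regulator of fat cells, had 65.2 TPM (interval 61.8 to 68.7), Cebpb 80.1 and Cebpa 35.4. Downstream of them, Fabp4 had 1.08 TPM, Lpl 0.871 and Plin1 1 read. Adipoq, Lep, Cidec, Cd36 and the thermogenic gene Ucp1 had 0 reads. The 0 of Adipoq allows up to 0.300 TPM.

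Skeletal muscle had the smallest share of those 4 lists, with 11 of 32 members expressed and 14 not detected. The Mef2 factors Mef2d and Mef2a, which work with muscle regulators and in other tissues, had 74.9 and 26.2 TPM, and Six4 had 22.6. Myod1 (chromosome 7, 46376474 to 46379099, plus strand), Myf5, Myog, Myf6 and Pax7 had 0 reads; for Myod1 this allows up to 0.223 TPM. The myosins Myh1, Myh2, Myh3, Myh4, Myh7 and Myh8, the fusion gene Mymk, Actc1 and Msc were at 0 as well. Acta1, skeletal actin, had 34 reads and 3.06 TPM.

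**Figure D3:**
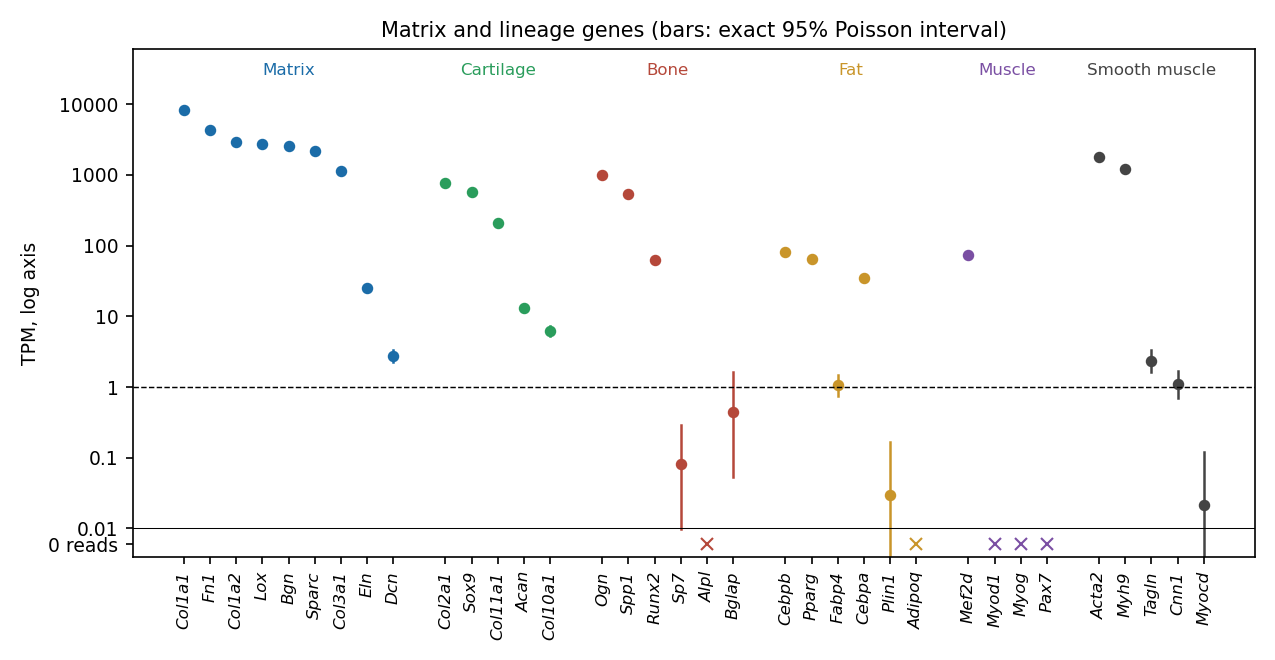
Level in TPM (log axis) of matrix and lineage genes in the unedited library; points are genes, bars exact 95% Poisson intervals, crosses 0 reads, and the dashed line 1 TPM. In the bone, fat and muscle groups, Runx2 (62.0 TPM), Pparg (65.2 TPM) and Mef2d (74.9 TPM) lie close together while Alpl, Adipoq, Myod1, Myog and Pax7 have no read.

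Signalling ligands and receptors differed in how many were expressed. The TGF-beta family signals through paired kinase receptors to Smad proteins. Of 14 TGF-beta and activin ligand genes 7 were expressed, the highest Tgfb3 (80.6 TPM), Tgfb2 (62.0), Gdf11 (56.0) and Inha (27.8), with Tgfb1 at 18.5. Mstn, Gdf3, Lefty2 and Gdf1 had 0 reads, and Gdf1 lies wholly under other exons. Of 22 receptor and Smad genes 18 were expressed, led by Smad4, the shared partner (143 TPM), Tgfbr2 (134), Bmpr1a (127) and the inhibitory Smad6 (101); Acvr1c had no read.

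Among 27 BMP and GDF ligands and antagonists 12 were expressed, and 2 kinds of gene stood out. The secreted Fstl1 had 1985 TPM and Bmp4, the main ligand counted, 177 TPM (interval 171 to 184). Bmp1, which is a procollagen protease and not a ligand, had 131 TPM, and the extracellular modulators Twsg1 and Grem1 had 127 and 126. Bmp2, Bmp5, Bmp7, Gdf2 and Gdf10 had 0 reads, with 47% of Bmp5 exonic bases under other exons. All 8 genes of an Id and BMP target list were expressed: Id1, an inhibitor of differentiation factors, had 584 TPM, Id3 570, Id2 174 and Smad6 101, while Id4 had 2.30.

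Wnt signalling genes differed in number between the sender and the receiver side. Of 19 Wnt ligand genes 5 were expressed (26.3%, median of the list 0.199 TPM), the highest being Wnt5a (16.7 TPM), Wnt5b (15.5), Wnt9a (2.66) and Wnt2b (2.34), and Wnt3a, Wnt6, Wnt7a, Wnt7b and Wnt9b had 0 reads. Of 16 receptor genes 15 were expressed (93.8%, median 62.4 TPM). Fzd2 had 287 TPM, Fzd1 270, the atypical receptor Ryk 155 and Fzd7 129, with the co-receptors Lrp6 and Lrp5 at 128 and 106; Fzd10 had no read. At a threshold of 5 TPM the counts were 2 ligands and 13 receptors. Inside the cell, Ctnnb1, beta-catenin, had 612 TPM, and Tcf7l2 and Tcf7l1, which take it to DNA, 148 and 117. Lgr4, an R-spondin receptor, had 404 TPM. Of 26 Wnt antagonists, mediators and targets 17 were expressed, 5 of them over 100 TPM, and Dkk1, Wif1 and Sost had 0 reads. Among them, Axin2, a common target of beta-catenin, had 4 reads (0.1 TPM), Nkd1 3.49 TPM and the secreted antagonists Sfrp2 and Sfrp1 115 and 85.9 TPM.

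Of the 3 Hedgehog ligand genes 2 had no read, while co-receptors were expressed. Gas1, a membrane co-receptor that binds Hedgehog, had 1374 TPM (interval 1359 to 1390), Boc 205, the transducer Smo 178 and Disp1 81.1. Shh, Dhh and the antagonist Hhip had 0 reads, and Ihh had 4. The pathway's own targets were lower, with Ptch1 at 25.9 TPM and Gli1 at 8.91. In the Notch list 15 of 23 members were expressed: Hes1, a repressor that answers Notch and other inputs, had 305 TPM, the receptors Notch2 and Notch1 138 and 94.45, and the ligand Jag1 93.6. Dll1, Dll3, Dll4 and Jag2 were at trace level, and Hes5 and Mfng had 0 reads.

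Growth factors and their receptors were expressed to different extents. Of 22 FGF ligand genes 6 were expressed, led by Fgf7, an epithelial growth factor made by mesenchyme (182 TPM, interval 176 to 187), followed by Fgf10 (12.5), Fgf2 (5.77) and Fgf14 (4.6). The 10 with no read were Fgf3, Fgf4, Fgf5, Fgf8, Fgf9, Fgf12, Fgf13, Fgf15, Fgf16 and Fgf20, and at a threshold of 5 TPM 3 ligands were expressed. Of 31 growth factor receptor genes 20 (64.5%, against 55.3% of all genes) were expressed: Ddr2, a collagen receptor, had 482 TPM, Axl, the receptor of Gas6, 466, Pdgfrb 399 and Igf2r, which is not a kinase, 310, with Fgfr1 at 214. Erbb4, Kdr, Kit and Flt3 were among those with 0 reads. Other growth factors were expressed in 28 of 31 cases, with Ccn1 (1216 TPM), Ptn (789), Angptl2 (265) and Vegfb (185) on top.

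Further pathways added to this picture. In the Hippo list 17 of 19 genes were expressed, with the targets Ccn1 and Ccn2 at 1216 and 138 TPM, Amotl2 at 323, Mob1a at 221 and the coactivators Wwtr1 and Yap1 at 98.9 and 70.9, and Vgll1 and Vgll2 had 0 reads. Igfbp7 (585 TPM) was far above every other insulin-like growth factor binding protein gene, the next being Igfbp4 at 9.02. Of the chemokine and cytokine genes 12 of 31 were expressed, and Cxcl12, which retains blood stem cells in marrow stroma, reached 562 TPM (interval 556 to 568) against 42.5 for the next, Cx3cl1. Among inflammatory genes Cxcl1 had 42.03 TPM, Ccl2 12.2 and Il6 6.83, and Tnf, Il1b, Cxcl2, Cxcl9, Cxcl10, Ifnb1 and Ifng were among 15 at 0 reads. Cytokine receptors were expressed in 22 of 26 cases, led by Il6st (234 TPM) and Tnfrsf1a (223), and Ccr1 and Ccr2 had no read. Among nuclear receptors 27 of 48 were expressed, near the share of all protein-coding genes, with Nr4a1 at 471 TPM, the retinoic acid receptor Rarg at 332 and Thra at 138. In the Eph and ephrin list 16 of 22 were expressed, led by Ephb4 (140 TPM) and its ligand Efnb2 (82.6).

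**Figure D4:**
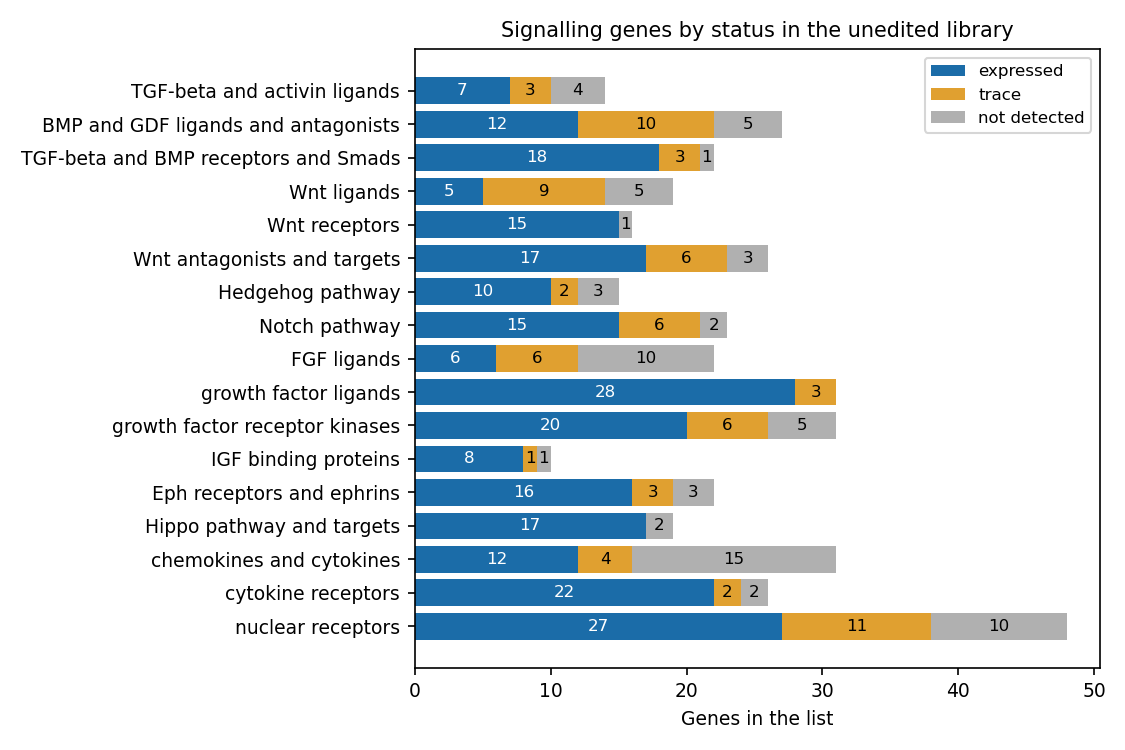
Number of genes in each signalling list that were expressed (at least 1 TPM and 10 reads), at trace level or not detected in the unedited library; bar length is the number of genes. Expressed genes are 5 of 19 for Wnt ligands and 6 of 22 for FGF ligands but 15 of 16 for Wnt receptors.

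Hox genes, which record position along the body axis, were counted almost only from the HoxA cluster. HoxA (chromosome 6, 52155590 to 52260880, mm10) had 8 of 11 genes expressed and 4185 reads in all. HoxB had 0 of 10 expressed and 14 reads, HoxC 1 of 9 and 73 reads, and HoxD 0 of 9 with 0 reads. Within HoxA, Hoxa2 had 54.6 TPM (interval 50.6 to 58.8), Hoxa5 49.9 (46.3 to 53.9) and Hoxa7 45.6, levels whose intervals overlap between neighbours. Hoxa6 had 32.4 TPM, Hoxa3 22.4, Hoxa4 20.3 and Hoxa10 12.3. Hoxa9 lay far below Hoxa7, at 0.818 TPM (interval 0.563 to 1.15), Hoxa11 had 0 reads and Hoxa13 had 2. The expressed HoxC gene was Hoxc13 at 3.20 TPM. Of the HoxB and HoxD genes with no read, Hoxb3, Hoxd3 and Hoxd4 have 52% to 63% of their exonic bases under other exons.

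**Figure D5:**
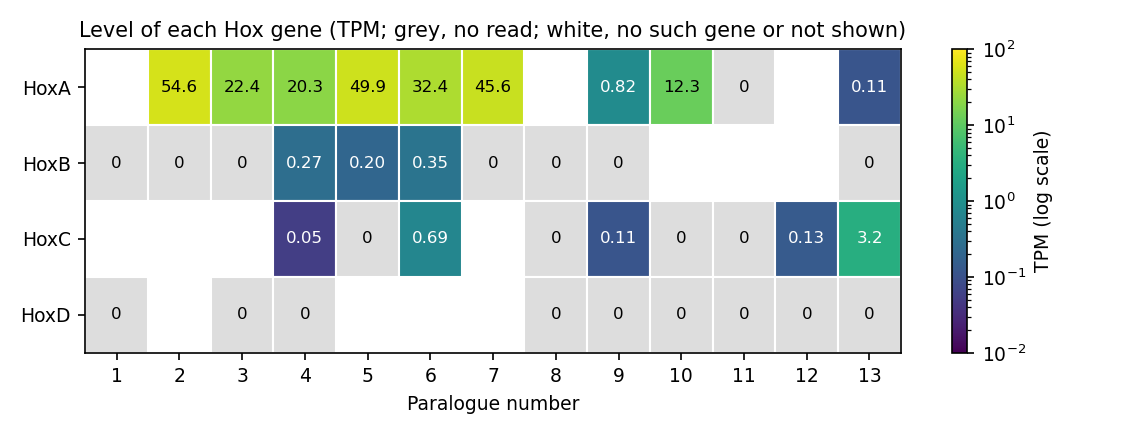
Level in TPM of each Hox gene in the unedited library, with clusters in rows and paralogue numbers in columns; colour is TPM on a log scale, grey marks 0 reads and white a paralogue that the cluster lacks or that is not shown. The HoxA row holds values from 0.11 to 54.6 TPM and 1 zero, and the HoxD row has no read.

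Other positional genes were a mixture. Of 42 homeobox and T-box genes 22 were expressed, close to the 55.3% of all genes. Irx2 (101 TPM), Six2 (92.2) and Irx1 (64.3) were among the highest, with Tbx1 at 38.7, Tbx15 at 35.1, Tbx18 at 34.8 and Pax9 at 12.6. The limb genes Tbx5 and Tbx4 and the heart and limb genes Hand1 and Hand2 had 0 reads, as did Otx2, En2, Lmx1a, Alx1, Lhx8, Barx1, Pax1, Nkx2-5 and Nkx6-1.

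Genes of proliferation were expressed throughout. All 32 cell cycle genes were expressed (median 105 TPM), led by Cdk4 (615 TPM), Cdc20 (294), Ccnd1 (280) and the proliferation marker Mki67 (241). Of 14 inhibitors and p53 genes 12 were expressed, with Cdkn1a at 202 TPM and Trp53, the gene of p53, at 158, while Cdkn1c and Trp73 had 0 reads. Cdkn2a and Cdkn2b, a pair of neighbouring inhibitor genes that immortal mouse lines often lose, had 51.2 TPM (interval 46.5 to 56.3) and 47.9 TPM (43.8 to 52.4). Immediate early genes, which respond to serum within minutes, were high: Fos had 847 TPM, Ier2 677, Egr1 644 and Junb 549, and 18 of 20 were expressed. The labels do not say when the medium was last changed.

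Metabolic and stress genes were expressed in most cases. Glycolysis had 22 of 27 genes expressed, with Pkm at 1352 TPM, Aldoa at 1048, Gapdh at 872 and Ldha at 722, and Slc2a3 and Pklr at 0 reads. Sterol and lipid synthesis had 23 of 24, with Scd2 at 2070 TPM, Hmgcs1 at 477 and Insig1 at 420. In the chaperone and stress list all 21 were expressed, led by Hsp90ab1, Calr (1283 TPM), Hspa8 (825) and Pdia3 (787). Antioxidant genes were expressed in 25 of 26 cases, with Txn1 (926 TPM), Prdx1 (746), Gpx4 (623) and Gpx1 (489) on top. The interferon list was lower in level, with 18 of 25 expressed. After B2m (1521 TPM), a constant chain of class I molecules, the next in the list was Stat2 at 60.1, and Rsad2 had 0 reads. The antiviral gene Ifitm3, which is outside this list, was higher than Stat2 and is given under other observations.

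Imprinted genes, which are read from 1 parental copy, were mixed. Of 35 genes 26 were expressed, with Grb10 at 474 TPM, Mest at 346, Igf2r at 310 and Impact at 90.2, and Peg3 at 71.4. At the Dlk1-Meg3 domain Meg3 had 32.3 TPM and Rian 28.4, and Dlk1, the protein-coding partner, 1.56. At the neighbouring pair Igf2 and H19, Igf2 had 14 reads (0.338 TPM, with 64.6% of its exonic bases under other exons) and H19 21 reads (1.18 TPM). Cdkn1c, Magel2, Snrpn and Snurf had 0 reads, but Snurf lies wholly under other exons and Snrpn and Cdkn1c have 34% and 31% of their bases overlapped.

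Xist was high and the broadly expressed Y-linked genes had no read. Xist (chromosome X, 103460366 to 103483254, minus strand) had 275 TPM (interval 272 to 278). The Y-linked genes Ddx3y, Uty, Kdm5d and Eif2s3y had 0 reads, against 341 TPM for Ddx3x and 180 for Kdm5c, which are X-linked relatives. Only 2 genes annotated on the Y chromosome had a read: Gm20826 had 1, and Gm47283 had 1353, with 37.1% of its windows in transcripts of other genes. The median level of expressed X-linked genes was 31.6 TPM, within the 23.2 to 40.5 TPM of the autosomes, while the share of X-linked genes expressed, 40.4%, lay below the 44.8% to 65.6% of the autosomes.

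The genes that the series was designed around lie on chromosome 4. Prdx1 (116685544 to 116700822, plus strand) encodes an enzyme that removes peroxides, and had 16428 reads and 746 TPM (interval 735 to 758). Mmachc (116702279 to 116708406, minus strand), which processes cobalamin, points toward it, with 1456 bases between the 3′ ends, and had 455 reads and 28.3 TPM (25.8 to 31.0). Ccdc163 (116708509 to 116751206, plus strand) starts 102 bases from the start of Mmachc on the other strand and had 13.3 TPM (11.7 to 15.1). Mmachc was thus expressed in the unedited line, below Prdx1 under each length tried. Its order against Ccdc163 depends on the length: with the median protein-coding transcript, Mmachc had 12.1 TPM and Ccdc163 17.1. Further genes of the neighbourhood were Akr1a1, an aldehyde reductase (794 TPM), Urod (63.5), Hectd3 (56.3), Nasp (29.1), Toe1 (20.8, with 41% overlapped), Tesk2 (17.5), Mutyh (10.4) and Hpdl (3.91), with Zswim5 at trace level (0.396). Of 17 cobalamin genes 14 were expressed, led by Mat2a (187 TPM), Mmadhc (135), Tcn2 (89.1) and Mut (58.1).

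DNA methylation genes were expressed in 19 of 20 cases. Dnmt1, which copies methylation after replication, had 114 TPM (interval 111 to 117), and Uhrf1, which guides it, 132. Dnmt3a and Dnmt3b, which set new methylation, had 14.9 TPM (14.3 to 15.7) and 3.66 TPM (3.07 to 4.33), and their cofactor Dnmt3l had 0 reads, which allows up to 0.139 TPM. The value of Dnmt3a depends on length, because its annotation includes long and short transcripts: with the median transcript length its level is 8.27 times as high. Among readers and erasers, Mbd3 had 291 TPM and Mbd2 90.3, and Tet3, Tet2 and Tet1 had 34.8, 17.3 and 10.5.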

How the data were processed

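RNA of unedited C3H10T1/2 cells was measured in 1 library; 3 edited libraries were not used. The authors deposited raw read counts per gene. STAR 2.6.1d and mm10 are named in the submitters' processing notes; how reads were counted, and with which strand setting, is not given in the sources used here. Of 280 genes lying wholly under exons of the other strand, 278 (99.3%) had 0 reads, against 53.7% of 37196 genes without overlap, so overlapping and antisense genes are uncertain.

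Symbols, classes and exon lengths came from GENCODE M21 for 54495 of 54532 identifiers; the other 37 held 0.00463% of counts. For Aldoa, Ddit3 and Rmrp, which have 2 or more entries, the longest was used. TPM used the union of exons; genes under 200 exonic bases were not given in TPM. Shared sequence was found as 64-base windows on annotated transcripts only. Promoter sequences are from RefSeq. Python 3.11.15, numpy 2.4.6, pandas 2.3.3 and scipy 1.17.1 were used. Poisson intervals and calls were tested on simulated Poisson counts, which checks the calculation only. Those counts held no shared sequence, overlap between genes or spread between cultures.

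The 55 gene lists and the genes in them were chosen with earlier results of these data known. Named genes are the 10 with most reads, the 30 highest in TPM, the 10 non-coding genes with most reads, the up to 4 highest of each list, list members with 0 reads, defining markers and the Prdx1 and Dnmt genes; any further gene was named after its value was seen. Other thresholds, lengths, denominators and gene filters were tried as alternatives. A few genes that meet this rule are not reported here.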

Additional observations from a re-analysis of the deposited data

How the results depend on the processing

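The number of expressed protein-coding genes ranged from 10451 (5 TPM) to 12679 (0.5 TPM) over 9 alternatives, 2 of them chosen after seeing the data. Without Gm26917 and Gm42418 the share of counts was 94.01% for protein-coding genes, 2.54% for long non-coding genes and 2.33% for mitochondrial genes. The small and structural group then held 0.752% and pseudogenes 0.375%. Without mitochondrial genes the protein-coding, long non-coding, small and pseudogene shares were 85.9%, 13.1%, 0.687% and 0.343%. The 10, 100 and 1000 most counted genes held 17.5%, 29.7% and 56.8% of counts, and 7.32%, 19.2% and 50.5% within nuclear protein-coding genes. The 10, 100 and 1000 highest genes held 7.0%, 21.6% and 54.3% of TPM, and 6.81%, 22.1% and 54.2% with the longest transcript as length. Of the 30 highest genes, 25 remained with the longest transcript, and 16 each with the median protein-coding transcript or with no length scaling (CPM). With the median transcript, levels of 238 named genes moved by factors of 0.404 to 8.27, the highest for Dnmt3a. At 5 TPM, 48 of 55 lists kept their count of expressed members within 1.5 times; Wnt and FGF ligands were among the 7 that did not. No paired analysis was possible because the unedited cells have 1 library. One library has no replicate error, so no value here shows how far another culture would differ. Genes under a few reads, overlapped genes and near-identical copies are limited by depth and by counting.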

Other observations

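Several highly expressed genes stood outside every list, and were picked after their values were seen. Among secreted proteins, Cst3, an inhibitor of cathepsins, had 1056 TPM (interval 1035 to 1077), Cpe 882, Ccn3 834 and Aspn, a small proteoglycan of tendon and ligament, 648. Il1rn, the antagonist of interleukin 1, had 588 TPM (581 to 596), while Il1b had 0 reads. Ptx3, a soluble pattern recognition protein, had 490 TPM.

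Rspo2, a secreted R-spondin that binds Lgr receptors and raises Wnt receptor levels, had 16678 reads and 451 TPM (interval 444 to 458). That is above every Wnt ligand gene counted, the highest of which, Wnt5a, had 16.7 TPM. Among other genes, the antiviral Ifitm3 had 864 TPM, the transcription factors Atf5 and Nfix 736 and 669, Cbr2 597 and the stromal surface gene Cd248 443.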
